A study of Mus musculus with 38 samples.

Results

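The medial prefrontal cortex of male control mice was compared after 21 days of chronic variable stress (CVS) and without stress (NS). The comparison holds 11 of the 38 libraries of the study, 6 from CVS mice and 5 from NS mice, taken by their labels of sex, genotype and treatment, each library from 1 animal number. All 11 mice carried SSTCre, which places Cre recombinase under the control of the somatostatin gene, so Cre was present in stressed and unstressed animals alike. Neither age nor background strain was given in the sources used here. Tissue was taken 24 hours after the last stressor. The other libraries came from male mutant mice (3 NS, 4 CVS), which carry an allele that this Cre recombines, and from female control and mutant mice (5 in each of 4 groups). Levels are given in CPM, the counts of a gene after every library is scaled to the same total, from RNA of whole tissue, in which fewer cells of a type and less RNA per cell cannot be told apart.

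Chronic variable stress exposes a mouse to changing mild stressors over weeks. Repeated stress acts on the prefrontal cortex through glucocorticoid hormones, which bind the receptors Nr3c1 and Nr3c2 and switch on genes such as Fkbp5 and Sgk1. It also acts through neuronal activity, which switches on immediate early genes such as Fos and Npas4. The daily clock runs in cortical cells as a loop: Clock and Arntl activate the Per, Cry, Nr1d and Ciart genes, whose products repress that activation, and outputs such as Dbp carry the rhythm to other genes. Brain endothelial cells form the blood-brain barrier, sealed by the tight junction protein claudin 5 (Cldn5).

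Sequencing depth was 20.09 to 25.02 M counts assigned to genes in NS and 18.94 to 24.01 M in CVS libraries. Mitochondrial transcripts took 5.604% to 6.389% of counts in NS and 5.623% to 6.656% in CVS. The somatostatin transcript Sst stood between 107.7 and 136.1 CPM in all 11 libraries, and its log2 difference between CVS and NS was -0.02 ± 0.05 (SE; edgeR adjusted p = 0.968). CVS replicate 1 stood apart in Cdhr1, a gene of the olfactory bulb, with 16.55 CPM against a highest level of 3.791 CPM elsewhere. Of 10 measured bulb markers, 7 stood above the median of the 11 libraries in CVS replicate 1, against 6 in NS replicate 2. Th lay within the NS range there at 1.81 CPM, and Slc17a6 was the lowest of the 11 libraries at 4.604 CPM. Bulb tissue in this library was not tested. CVS replicate 3 stood apart in ribosomal protein and oxidative phosphorylation genes, and values without it are given beside them.

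Of 17212 genes tested with edgeR's quasi-likelihood test, 2 fell in CVS mice and 0 rose at an adjusted p below 0.05, which is 0.0116% and 0% of the genes tested. At an unadjusted p below 0.05, 652 genes were lower (3.79%) and 620 were higher (3.6%). The 5 NS and 6 CVS values did not overlap for 68 genes that were lower (0.395%) and 74 that were higher (0.43%). The median log2 difference over all genes was 0.000264. DESeq2, run on the same counts, gave an adjusted p for 11200 genes and called 12 lower (0.107%) and 11 higher (0.0982%), among them the 2 of edgeR. The other 21 had edgeR adjusted p values from 0.199 to 0.3996 in the fit of 18 male libraries, and they are described as lower or higher by their values, with the tool named.

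Doc2b (ENSMUSG00000020848.8) and Cbs (ENSMUSG00000024039.16) fell in CVS mice. Doc2b encodes a calcium sensor of synaptic vesicle release, and Cbs encodes cystathionine beta-synthase, the enzyme that commits homocysteine to transsulfuration and is concentrated in astrocytes. Doc2b stood at 24.91, 24.15, 26.24, 19.29 and 22.11 CPM in the 5 NS libraries. In the 6 CVS libraries its lowest, median and highest levels were 14.42, 16.96 and 19.19 CPM. The highest CVS value thus lay just under the lowest NS value, and the groups did not overlap. The log2 difference was -0.47 ± 0.08 (SE), a level 0.72 times that of NS, with an edgeR adjusted p of 0.0351, and 6 of 6 CVS libraries lay below the NS mean.

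Cbs stood at 30.55, 31.4, 29.28, 29.06 and 29.48 CPM in the NS libraries. Its lowest, median and highest CVS levels were 23.38, 24.33 and 25.35 CPM. Both groups were tight, with an SD of 0.992 CPM in NS (n = 5) and 0.81 CPM in CVS (n = 6), and they were separated by a gap wider than either SD. The log2 difference was -0.30 ± 0.05 (SE; edgeR adjusted p = 0.0351), a level 0.812 times that of NS. The calls depend on the libraries in the fit: leaving out 1 control library at a time kept Doc2b past the threshold in 3 of 11 fits and Cbs in 1 of 11, with log2 differences from -0.54 to -0.43 and from -0.32 to -0.28. A fit of all 38 libraries gave an adjusted p of 0.252 for each.

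**Figure D1:**
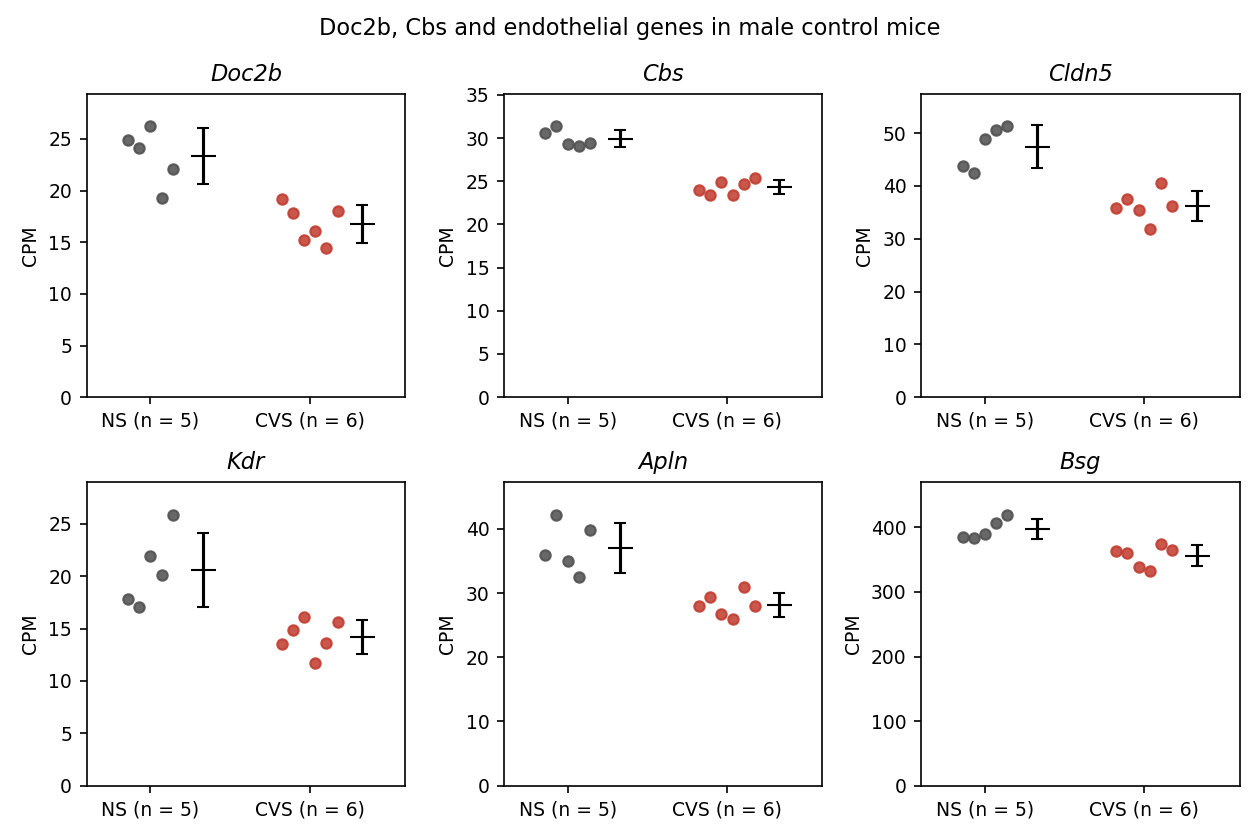
Expression (CPM, axes from 0) of Doc2b, Cbs and 4 genes of endothelial cells or vessel growth in the 5 NS (grey) and 6 CVS (red) libraries of male control mice, with the group mean and SD in black. In all 6 panels every CVS point lies below every NS point.

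Of 21 tested genes of the Doc2, synaptotagmin and synaptotagmin-like families, Doc2b alone passed the edgeR threshold, and 12 of 21 had a negative log2 difference with a median of -0.02. Doc2a, its neuronal paralog, had a log2 difference of 0.00 (unadjusted p = 0.926). Among 30 genes of vesicle docking, fusion and recycling, 13 were negative, the median was 0.01 and 0 were lower at an unadjusted p below 0.05, against 3.79% of all genes.

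Around Cbs, 36 enzymes of transsulfuration, glutathione and one-carbon metabolism were measured, of which 20 were negative with a median of -0.02. Cth, which acts directly after Cbs, had a log2 difference of 0.12 (unadjusted p = 0.448). Mthfd1l, the mitochondrial enzyme that releases formate for one-carbon units, was higher: it stood at 13.72, 16.46, 15.54, 17.28 and 14.44 CPM in NS, and at 18.16, 19.27 and 20.8 CPM as lowest, median and highest of CVS. These groups did not overlap. Its log2 difference was 0.32 ± 0.07 (SE), called by DESeq2 (adjusted p = 0.0192) and not by edgeR (adjusted p = 0.199). Gldc, which cleaves glycine in astrocytes, was lower by values with a log2 difference of -0.19 ± 0.07 (SE; edgeR adjusted p = 0.54).

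The astrocyte markers, a list to which Cbs belongs, leaned the same way. Of 26 measured markers, 25 were negative with a median log2 difference of -0.08, against 49.9% negative genes and a median of 0.000264 over all genes tested. Lower at an unadjusted p below 0.05 were 9 of 26, or 34.6%, against 3.79% of all genes, and 1 of them, Cbs, passed the adjusted threshold. Like the other lists here, this one was chosen with earlier results of these data known, so its share is not independent support. Gja1, the gap junction protein that joins astrocytes, stood at 186.8, 190.5, 193.6, 189.7 and 194.3 CPM in NS, and at 155.1, 169.9 and 187.6 CPM as lowest, median and highest of CVS. Only the highest CVS library reached into the NS range. Its log2 difference was -0.16 ± 0.05 (SE; edgeR adjusted p = 0.432).

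Other astrocyte genes with small unadjusted p values were Fabp7, a fatty acid carrier, Aqp4, the water channel of astrocyte endfeet, and S100b, a calcium-binding protein. Their log2 differences were -0.44 ± 0.13, -0.24 ± 0.09 and -0.14 ± 0.05 (SE), and each had an edgeR adjusted p above the threshold (0.432, 0.589 and 0.589). The marker sum ranged from 8911 to 9846 CPM in NS and from 8466 to 9294 CPM in CVS, so the summed levels overlapped. Astrocyte markers are averaged by library in the plot of list means: NS replicate 3 lay at -0.10 and CVS replicate 4 at -0.02, so the groups were not separated at the level of the list.

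Most markers of brain endothelium had negative differences, and DESeq2 called 3 of them lower in CVS. Of 30 endothelial markers, 26 were negative with a median log2 difference of -0.14, and 9 were lower at an unadjusted p below 0.05 (30%, against 3.79% of all genes). None of the 30 passed the edgeR threshold. The mean log2 level of the list overlapped between the groups: NS replicates 2 and 3 stood at -0.12 and -0.08, and CVS replicates 3 and 6 at -0.06 and -0.01. Cldn5 stood at 43.71, 42.52, 48.88, 50.64 and 51.34 CPM in NS, and at 31.79, 36.03 and 40.53 CPM as lowest, median and highest of CVS. The groups did not overlap. Its log2 difference was -0.39 ± 0.08 (SE), with a DESeq2 adjusted p of 0.0096, an edgeR adjusted p of 0.199, and 0.0275 when edgeR was fitted to the 11 control libraries alone.

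Kdr, the main receptor for vascular endothelial growth factor, stood at 17.82, 17.1, 21.95, 20.09 and 25.9 CPM in NS, and at 11.68, 14.24 and 16.1 CPM as lowest, median and highest of CVS. NS replicate 5 was the highest library and the groups did not overlap. Its log2 difference was -0.53 ± 0.12 (SE; DESeq2 adjusted p = 0.0109, edgeR adjusted p = 0.236). Bsg, a membrane glycoprotein abundant in barrier endothelium, was lower by less, from a mean of 397.1 ± 15.8 CPM (SD, n = 5) to 355.9 ± 16.2 CPM (SD, n = 6), with no overlap between the groups and a DESeq2 adjusted p of 0.0305.

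A list of genes of vessel growth and flow sensing, added after the values were seen, had 33 of 40 negative members and a median of -0.12. Apln, the apelin peptide that tip cells release, stood at 35.93, 42.23, 34.95, 32.51 and 39.79 CPM in NS, and at 26, 27.94 and 30.98 CPM as lowest, median and highest of CVS. The groups did not overlap, and the log2 difference was -0.40 ± 0.09 (SE; DESeq2 adjusted p = 0.0121, edgeR adjusted p = 0.199 in the fit of 18 male libraries and 0.0275 in the fit of 11). Klf2, a flow-responsive transcription factor that is also an immediate early gene, had a log2 difference of -0.52 ± 0.14 (SE) with an edgeR adjusted p of 0.3996, and its groups did not overlap. Cd93 and Nos3, a surface receptor and the nitric oxide synthase of endothelium, had log2 differences of -0.60 ± 0.16 and -0.30 ± 0.09 (SE) and overlapped between the groups.

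Not every barrier gene was lower. In a second list added after the values were seen, of tight junction and transport genes, 16 of 24 were negative. Tfrc, the transferrin receptor that brings iron into the brain, was higher by 0.19 ± 0.05 on the log2 scale (SE; edgeR adjusted p = 0.432). The glucose transporter Slc2a1 had a log2 difference of 0.00, and the endothelial markers Pecam1 and Cdh5 had log2 differences of -0.07 and -0.16 with unadjusted p values of 0.427 and 0.272. Pericyte and smooth muscle markers were negative for 9 of 15, among them Rgs5 at -0.19 ± 0.07 (SE; edgeR adjusted p = 0.609).

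Blood and meningeal markers varied between libraries in the same tissue. All 9 measured blood markers were negative, with summed levels of 90.3 to 180.8 CPM in NS and 55.1 to 146.4 CPM in CVS. Meningeal fibroblast markers were negative for 13 of 15, with sums of 435.4 to 913.3 CPM in NS and 368.1 to 980.2 CPM in CVS. At an unadjusted p below 0.05, 0 genes of either list were lower. The endothelial sum was 1139 to 1344 CPM in NS and 1053 to 1192 CPM in CVS. Bsg weighed heavily in this sum, with means of 397.1 CPM in NS and 355.9 CPM in CVS. The mean sums were 1226 and 1117 CPM. The part of blood and meninges in the endothelial values was not tested.

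**Figure D2:**
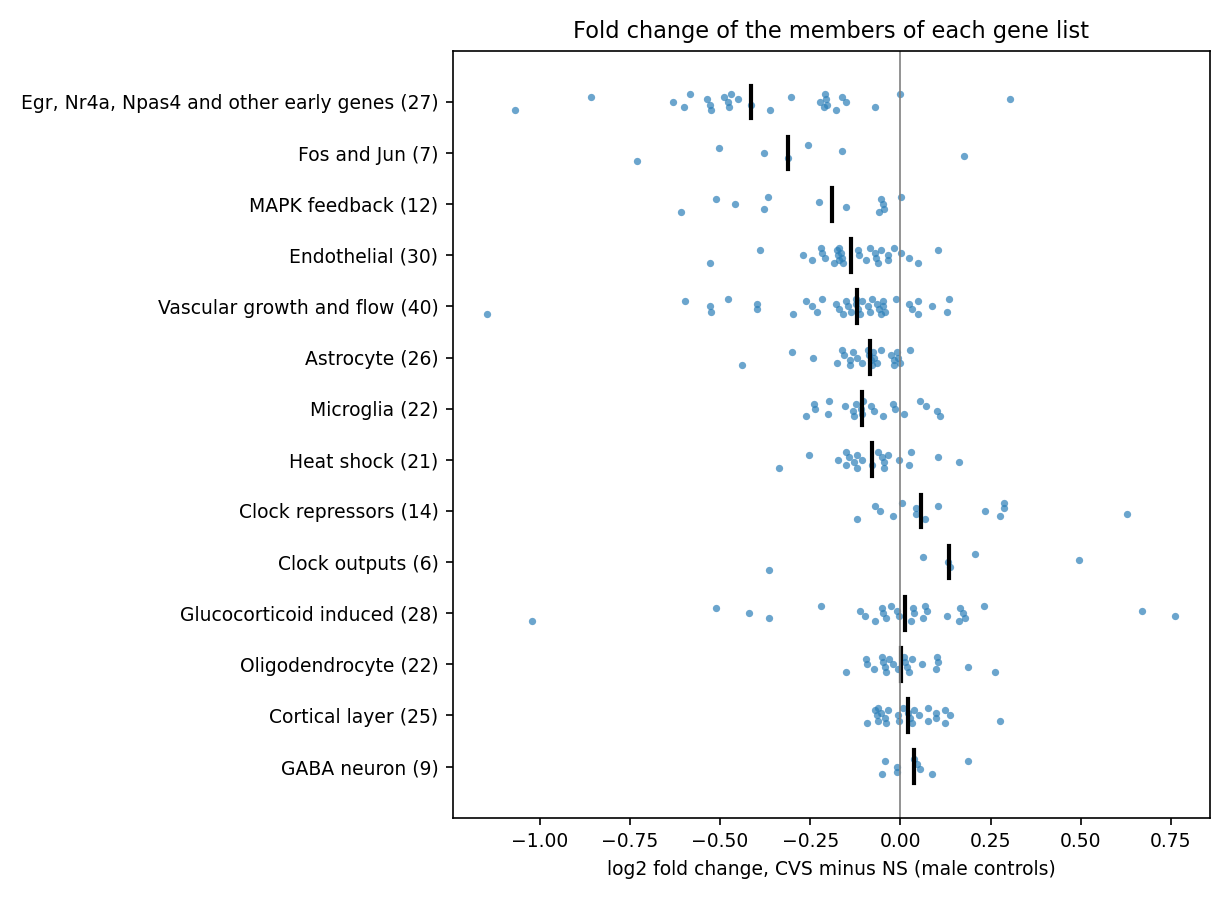
Each point is the log2 fold change (CVS minus NS, male control mice) of 1 tested member of a gene list, with the list's tested number in parentheses and its median as a black bar. Medians lie at -0.41 for Egr, Nr4a, Npas4 and other early genes, -0.14 for endothelial markers and 0.13 for clock outputs, and near 0 for oligodendrocyte markers.

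Clock repressors and outputs had mostly higher values in CVS mice, and clock activators mostly lower ones. Of 14 repressors, 10 were positive and 5 were higher at an unadjusted p below 0.05 (35.7%, against 3.6% of all genes). Of 6 outputs, 5 were positive and 4 were higher at that level (66.7%). Of 7 activators, 5 were negative (71.4%, against 49.9% of all genes) with a median of -0.03. At an unadjusted p below 0.05, 1 activator was lower (14.3%, against 3.79% of all genes). The list means overlapped: NS replicate 2 stood at 0.13 for repressors and 0.07 for outputs, and CVS replicate 1 at -0.07 and 0.03. None of these 27 genes passed the edgeR threshold, and 4 of them, Ciart, Per3, Nr1d2 and Usp2, were called higher by DESeq2.

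Some promoters of the clock genes hold the letters that clock proteins read, and 6 of these are shown with the match in capitals. The promoters of Dbp, Nr1d1, Nr1d2, Hlf, Usp2 and Clock held none of the 3 motifs searched. The sequences are RefSeq promoters of build GRCm38.p6, from 250 bases before to 50 after the start, and the counts were made on another build, GRCm39. In the first 3 the capitals mark the E-box CACGTG, bound by Clock and Arntl, in Per3 the D-box TTANGTAA, bound by Dbp, Hlf and Tef and by Nfil3, and in the last 2 the core TAGGTCA of the element shared by the Nr1d and Ror receptors, which stands on the other strand as TGACCTA in Nfil3.
Ciart (chr3:95882179-95882478, minus strand): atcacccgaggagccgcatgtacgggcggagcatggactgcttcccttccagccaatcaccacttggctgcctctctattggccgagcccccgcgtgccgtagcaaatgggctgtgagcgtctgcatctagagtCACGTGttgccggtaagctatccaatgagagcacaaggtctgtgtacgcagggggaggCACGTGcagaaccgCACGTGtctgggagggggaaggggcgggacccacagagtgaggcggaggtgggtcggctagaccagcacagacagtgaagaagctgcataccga
Bhlhe41 (chr6:145865371-145865670, minus strand): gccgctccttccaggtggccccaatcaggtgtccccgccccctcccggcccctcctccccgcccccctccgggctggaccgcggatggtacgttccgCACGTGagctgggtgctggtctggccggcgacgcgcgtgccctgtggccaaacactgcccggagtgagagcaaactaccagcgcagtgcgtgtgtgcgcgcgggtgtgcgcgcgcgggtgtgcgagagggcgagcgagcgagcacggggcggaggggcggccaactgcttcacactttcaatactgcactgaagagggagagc
Tef (chr15:81802423-81802722, plus strand): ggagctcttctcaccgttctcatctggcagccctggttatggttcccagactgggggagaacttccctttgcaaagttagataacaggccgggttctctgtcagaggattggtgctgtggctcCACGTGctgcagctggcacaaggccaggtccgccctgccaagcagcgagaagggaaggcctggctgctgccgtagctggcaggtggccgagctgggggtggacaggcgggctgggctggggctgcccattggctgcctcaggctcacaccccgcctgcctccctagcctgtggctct
Per3 (chr4:151044616-151044915, minus strand): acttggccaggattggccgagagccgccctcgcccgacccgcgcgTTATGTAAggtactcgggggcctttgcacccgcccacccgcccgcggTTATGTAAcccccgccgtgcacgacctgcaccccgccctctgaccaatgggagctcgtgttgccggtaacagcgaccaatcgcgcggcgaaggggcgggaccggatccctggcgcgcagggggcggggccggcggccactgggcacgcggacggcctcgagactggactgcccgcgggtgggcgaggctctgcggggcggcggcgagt
Arntl (chr7:113207261-113207560, plus strand): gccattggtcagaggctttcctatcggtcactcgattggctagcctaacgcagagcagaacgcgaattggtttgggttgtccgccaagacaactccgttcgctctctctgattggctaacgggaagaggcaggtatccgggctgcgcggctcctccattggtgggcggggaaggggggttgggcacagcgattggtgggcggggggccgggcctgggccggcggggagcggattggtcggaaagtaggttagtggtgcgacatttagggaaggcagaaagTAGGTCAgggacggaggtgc
Nfil3 (chr13:52980990-52981289, minus strand): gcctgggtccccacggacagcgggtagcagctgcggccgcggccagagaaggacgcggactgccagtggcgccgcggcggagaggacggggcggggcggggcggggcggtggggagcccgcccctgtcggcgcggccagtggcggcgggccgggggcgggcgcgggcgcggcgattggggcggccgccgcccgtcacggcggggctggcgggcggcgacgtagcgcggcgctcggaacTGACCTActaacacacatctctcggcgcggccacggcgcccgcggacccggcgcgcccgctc

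Both strands were searched, and the 3 motifs do not overlap in these promoters. Ciart holds 3 E-boxes and Per3 holds 2 D-boxes, and the other 4 promoters hold 1 match each to the motif shown. Of 32851 promoters in the table, 7.15% hold the E-box, 2.32% the D-box and 2.61% the core TAGGTCA. Among the 30 promoters of clock genes, 6 held an E-box, 2 a D-box and 2 the core. Counted by gene, with 1 or more listed starts each, these were 5, 2 and 2 of the 21 clock genes with an entry. The E-box also stands in the promoters of Per1 and Cry1, the D-box at the second listed start of Rorb, and the core in Arntl only at its second listed start. These matches describe letters in a window and were not tested for binding.

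Ciart, a repressor of the Clock and Arntl complex, stood at 8.246, 9.553, 9.222, 10.53 and 10.36 CPM in NS, and at 10.03, 14.06 and 19.5 CPM as lowest, median and highest of CVS. CVS replicate 1 lay within the NS range and the other 5 CVS libraries above it. Its log2 difference was 0.63 ± 0.14 (SE; DESeq2 adjusted p = 0.0109, edgeR adjusted p = 0.236). Per3, a period gene, stood at 46.96, 52.37, 49.43, 56.18 and 55.78 CPM in NS, and at 59.98, 62.87 and 69.52 CPM as lowest, median and highest of CVS. Its groups did not overlap, and its log2 difference was 0.29 ± 0.06 (SE; DESeq2 adjusted p = 0.0147, edgeR adjusted p = 0.199).

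Nr1d2, a nuclear receptor that represses Arntl, had a log2 difference of 0.28 ± 0.07 (SE; DESeq2 adjusted p = 0.0495). Usp2, a clock-controlled ubiquitin protease, had one of 0.21 ± 0.05 (SE; DESeq2 adjusted p = 0.046). Dbp, the D-box activator, stood at 65.84, 92.2, 59.94, 101 and 73.01 CPM in NS, and at 86.95, 112.9 and 123.7 CPM as lowest, median and highest of CVS. NS replicates 2 and 4 lay inside the CVS range. The log2 difference of Dbp was 0.50 ± 0.13 (SE; edgeR adjusted p = 0.432, DESeq2 adjusted p = 0.0703), and its gene overlaps Sphk2 in RefSeq.

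The remaining clock genes passed neither test. Nr1d1, Bhlhe41, Hlf and Tef had log2 differences of 0.29, 0.23, 0.14 and 0.13. Arntl had a log2 difference of -0.25 ± 0.08 (SE; edgeR adjusted p = 0.432) and Nfil3, a repressor at D-boxes, one of -0.36 ± 0.12 (SE; edgeR adjusted p = 0.535). Arntl stood at 40.08, 35.52, 40.58, 29.7 and 37.05 CPM in NS, and at 27, 30.41 and 33.98 CPM as lowest, median and highest of CVS, so NS replicate 4 lay among the CVS libraries. Clock itself had a log2 difference of -0.05 ± 0.04 (SE), and Per1, Cry1 and Rorb had log2 differences of -0.07, -0.06 and -0.03. The time of day of each dissection was not given in the sources used here.

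**Figure D3:**
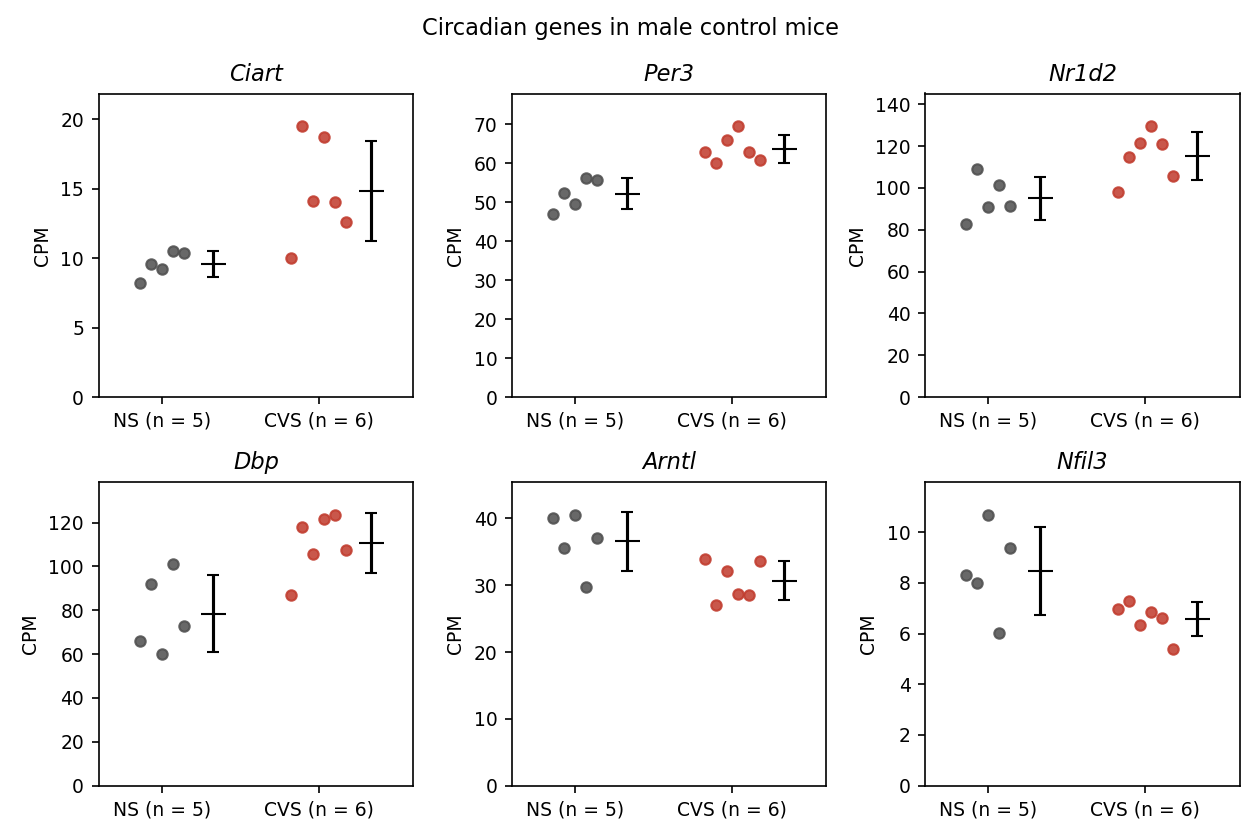
Expression (CPM, axes from 0) of 6 circadian genes in the 5 NS (grey) and 6 CVS (red) libraries of male control mice, with group mean and SD in black. Ciart, Per3, Nr1d2 and Dbp have higher CVS means, Arntl and Nfil3 lower ones, and only Per3 shows no overlap between the groups.

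Immediate early genes, the first transcripts that neurons make after firing, had lower values in CVS mice, but the NS libraries were split. Of 46 measured activity-regulated genes, 43 were negative with a median log2 difference of -0.34, and 12 were lower at an unadjusted p below 0.05 (26.1%, against 3.79% of all genes). None passed the edgeR threshold and none was called by DESeq2. Above the median of the 11 libraries were 44, 43 and 41 of the 46 genes in NS replicates 2, 3 and 5, and 12 and 6 in NS replicates 1 and 4. In the CVS libraries this number ran from 7 to 28. NS replicates 1 and 4 thus lay at the level of the CVS mice or below.

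Fos, a subunit of the AP-1 transcription factor, stood at 25.51, 48.94, 47.91, 22.14 and 40.49 CPM in NS, and at 8.794, 24.33 and 30.34 CPM as lowest, median and highest of CVS. The log2 difference was -0.73 ± 0.37 (SE; edgeR adjusted p = 0.704). Npas4, an activity-dependent factor that shapes inhibitory synapses, differed by -0.63 ± 0.32 (SE; edgeR adjusted p = 0.7004), and Egr2 by -1.07 ± 0.44 (SE; edgeR adjusted p = 0.652). Egr2 stood at 8.161, 19.01, 24.12, 5.908 and 22.16 CPM in NS, and at 4.677, 6.844 and 11.15 CPM as lowest, median and highest of CVS. As for Fos, NS replicates 2, 3 and 5 were high and NS replicates 1 and 4 were low.

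Jund, a Jun protein present at rest, differed by -0.16 ± 0.05 (SE; edgeR adjusted p = 0.432). The feedback inhibitors of MAP kinase signalling, which follow neuronal firing, were negative for 11 of 12 with a median of -0.19, among them Spry4 at -0.46 ± 0.18 and Dusp6 at -0.37 ± 0.18 (SE). Bdnf, the growth factor induced by activity, differed by -0.21 ± 0.12 (SE; edgeR adjusted p = 0.725).

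**Figure D4:**
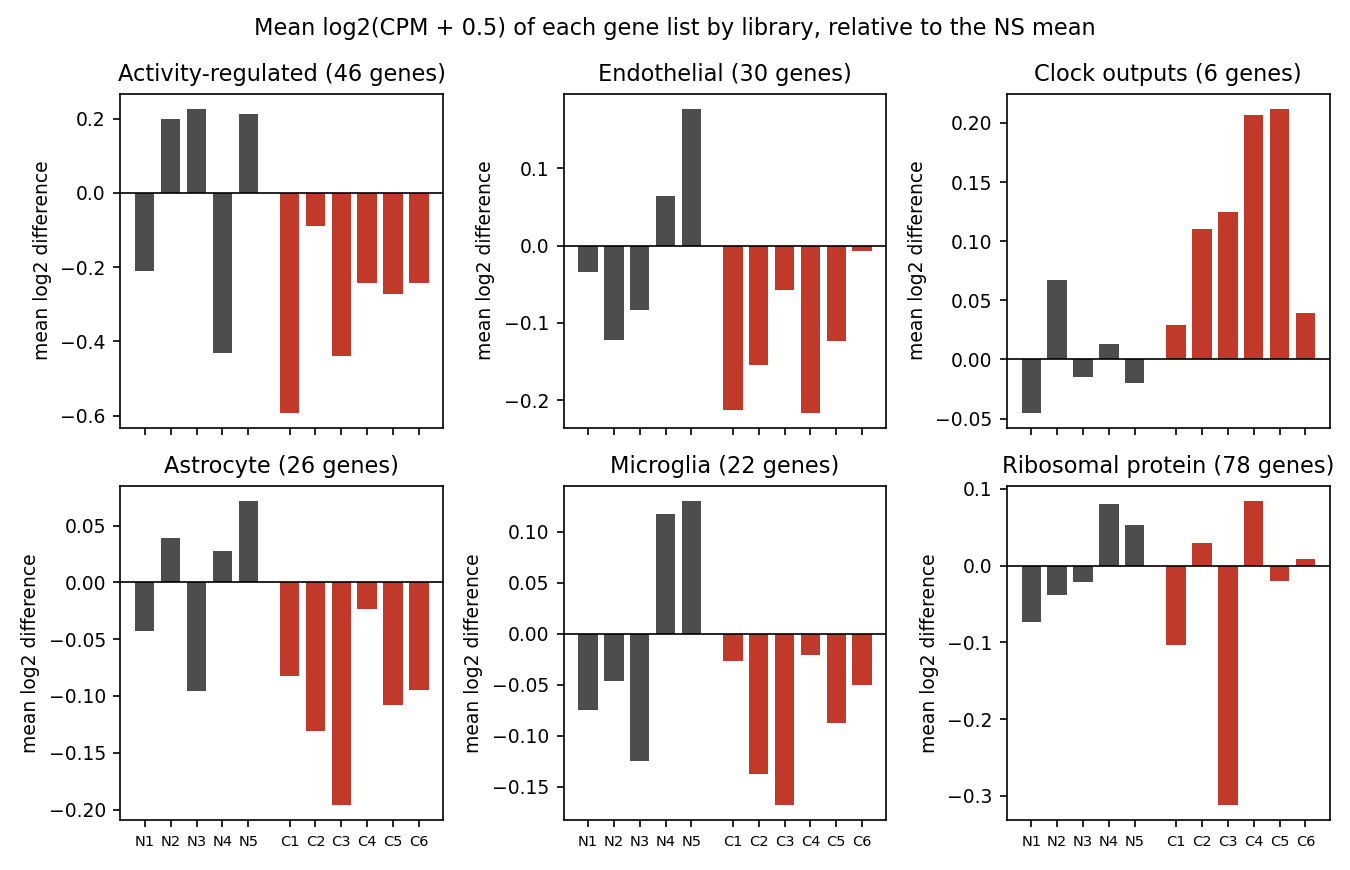
Mean log2(CPM + 0.5) of the members of 6 gene lists in each library, relative to the mean of the 5 NS libraries, for NS replicates 1 to 5 (N1 to N5, grey) and CVS replicates 1 to 6 (C1 to C6, red), with a separate y axis in each panel. For activity-regulated genes N2, N3 and N5 lie at 0.20, 0.23 and 0.21, and N1 and N4 at -0.21 and -0.43, within the range of the CVS libraries.

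Glucocorticoid-induced genes were split evenly in sign. Of 28 measured, 14 were positive and 14 negative, with a median of 0.01. Fkbp5, a co-chaperone that dampens the receptor, stood at 25.98, 25.42, 24.39, 27.85 and 22.31 CPM in NS, and at 26.69, 27.31 and 37.2 CPM as lowest, median and highest of CVS, with a log2 difference of 0.23 ± 0.10 (SE; edgeR adjusted p = 0.641). Sgk1, a kinase, differed by 0.16 ± 0.07 and Zbtb16, a zinc finger factor, by 0.18 ± 0.07 (SE), with edgeR adjusted p values of 0.644 and 0.589. These 3 genes were higher at an unadjusted p below 0.05, as were Plin4 and Hif3a at low levels of 1.153 to 8.81 CPM, which makes 17.9% of the list against 3.6% of all genes. Cdkn1a, a cell cycle inhibitor, was the 1 member lower at that p (3.57%, against 3.79% of all genes), with a log2 difference of -0.42 ± 0.15 (SE; edgeR adjusted p = 0.599).

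Nr3c1, the glucocorticoid receptor, had a log2 difference of -0.03 ± 0.05 and Nr3c2, the mineralocorticoid receptor, one of 0.02 ± 0.05 (SE). Fkbp4, a co-chaperone of the receptor, was lower with no overlap, from a median of 112.7 to one of 103.5 CPM, at -0.16 ± 0.04 on the log2 scale (SE; edgeR adjusted p = 0.415). Crh, the hormone that starts the stress axis, stood at 4.104 to 8.503 CPM in NS and 4.059 to 5.943 CPM in CVS, with a log2 difference of -0.33 ± 0.16 (SE; edgeR adjusted p = 0.679).

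Chaperones leaned lower. Of 21 heat shock genes, 17 were negative with a median of -0.08, and of 23 genes of the unfolded protein response 19 were negative with a median of -0.06. Among all genes 49.9% were negative. At an unadjusted p below 0.05, 4 and 2 genes were lower (19% and 8.7%, against 3.79% of all genes). The list means overlapped: NS replicate 4 stood at -0.12 for heat shock, NS replicate 1 at -0.16 for the unfolded protein response, and CVS replicate 6 at 0.03 and 0.06. Hspa8, the constitutive chaperone, had medians of 1662 CPM in NS and 1470 CPM in CVS, with NS replicate 4 the lowest of all at 1359 CPM. Dnajb5 differed by -0.34 ± 0.11 and Hsph1 by -0.15 ± 0.05 (SE), with edgeR adjusted p values of 0.54 and 0.584.

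Microglia markers were negative for 17 of 22 (77.3%, against 49.9% of all genes) with a median of -0.11. Laptm5, a lysosomal protein of these cells, did not overlap between groups: NS libraries stood at 34.1, 32.38, 30.89, 32.99 and 33.12 CPM, and the lowest, median and highest CVS libraries at 26.89, 28.76 and 29.88 CPM. Its log2 difference was -0.20 ± 0.06 (SE; edgeR adjusted p = 0.432). Olfml3, a secreted microglial protein, differed by -0.26 ± 0.07 (SE; edgeR adjusted p = 0.3996). All 22 measured interferon and inflammatory genes were negative with a median of -0.16, against 49.9% negative among all genes. Lower at an unadjusted p below 0.05 were 2 of 22 (9.09%, against 3.79% of all genes). The list means overlapped, with NS replicate 3 at -0.31 and CVS replicate 6 at 0.03. In male mutants 4 of 22 were negative, and in female controls 11 of 22. The chemokine Cxcl12, at -0.27 ± 0.06 (SE), was the member that DESeq2 called (adjusted p = 0.0305).

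Ribosomal protein genes were negative for 67 of 78 and nuclear oxidative phosphorylation genes for 64 of 74, with medians of -0.05 and -0.04. The 2 counts moved most with 1 library. CVS replicate 3 had a mean log2 level of -0.31 for ribosomal protein genes and -0.26 for oxidative phosphorylation genes, below all other libraries. Without CVS replicate 3 the negative members numbered 39 of 78 and 45 of 74, and without any other single library they numbered 51 to 73 and 58 to 69. The medians without CVS replicate 3 were -0.000242 and -0.0154. Proteasome genes were negative for 21 of 31.

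Markers of oligodendrocytes, cortical layers, GABA neurons and parvalbumin neurons were near balance in sign. Oligodendrocyte markers were negative for 11 of 22, cortical layer markers for 11 of 25, general GABA neuron genes for 4 of 9 and parvalbumin neuron markers for 7 of 16, and the medians lay between 0.00 and 0.04. Somatostatin neuron markers were negative for 16 of 20 (80%, against 49.9% of all genes) with a median of -0.07, and 1 of them was lower at an unadjusted p below 0.05 (5%, against 3.79%). Sst, Nr3c2 and Cdhr1 changed sign when 1 library was left out, which is given with the other settings.

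The remaining genes that only DESeq2 called came from several functions. Higher were Igfn1, Strip2, Kcnip4, Cirbp, Pkn2 and Cdkl1. Igfn1, an immunoglobulin-domain protein, stood at 19.65, 26.4, 28.36, 28.81 and 27.24 CPM in NS, and at 27.64, 37.88 and 43.25 CPM as lowest, median and highest of CVS, with a log2 difference of 0.50 ± 0.12 (SE; DESeq2 adjusted p = 0.0121). Kcnip4, a subunit of A-type potassium channels, differed by 0.23 ± 0.05 (SE) with no overlap. Cirbp, an RNA-binding protein induced by cold, differed by 0.28 ± 0.06 (SE), and 1 NS library reached into the CVS range.

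Lower were Fscn1, an actin-bundling protein, at -0.21 ± 0.05, Tmbim6, a regulator of calcium leak from the endoplasmic reticulum, at -0.13 ± 0.03, Hexa, a lysosomal hexosaminidase, at -0.20 ± 0.05, Parvb, an adhesion adaptor, at -0.28 ± 0.07, and Fam43b at -0.39 ± 0.10 (log2 differences, SE). Tmbim6 and Hexa did not overlap between the groups. Of all 23 genes called by DESeq2, 14 did not overlap, against 0.395% lower and 0.43% higher among all genes tested. The 23 were chosen from the same libraries, so this count gives no separate support. Hexa, Kcnip4, Ciart, Cdkl1, Igfn1, Dbp, Nr1d1, Clock, Nos3, Plin4 and Nr3c2 overlap another tested gene in RefSeq, and neither the strand setting of counting nor the annotation release was given in the sources used here. Reads of the partner gene may be counted with them.

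The same stress was given to male mutant and to female control mice, whose libraries are separate from these 11. Mitochondrial transcripts took 5.604% to 6.656% of counts in male control libraries and 3.256% to 4.079% in female control libraries. Sex thus cannot be told apart from other differences between the male and female sets of libraries. Of the 23 genes called by DESeq2, 20 had the same direction in male mutants (87%) and 14 in female controls (60.9%), against 49.9% and 51.7% of all genes tested. For genes at an unadjusted p below 0.05 the shares were 56.4% and 54.6%. The gene lists did not all keep their direction. Activity-regulated genes were negative for 23 of 46 in mutants and 35 of 46 in females, and microglia markers for 9 and 7 of 22. Ribosomal protein genes were negative for 7 and 6 of 78. Clock repressors were negative for 4 of 14 in mutants and 12 of 14 in females, against 4 of 14 in male controls. Their median was 0.14 in mutants and -0.04 in females. Clock outputs were negative for 1 and 3 of 6. Endothelial markers were negative for 24 of 30 in both, and astrocyte markers for 18 and 21 of 26. Apln differed by -0.30 ± 0.11 in mutants and -0.14 ± 0.12 in females, and Ciart by 0.50 ± 0.18 and -0.02 ± 0.16 (log2, SE). Doc2b differed by -0.15 ± 0.10 and 0.05 ± 0.11, and Cbs by -0.11 ± 0.07 and -0.03 ± 0.07.

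The differences between the groups were tested as well. For control minus mutant, 0 of 17212 genes passed the edgeR threshold (smallest adjusted p = 0.995), with 720 at an unadjusted p below 0.05 (4.18%). For male minus female controls, 0 of 17671 passed (smallest adjusted p = 0.507), with 1271 at an unadjusted p below 0.05 (7.19%). DESeq2 and limma voom also called 0 in both. For Doc2b the male minus female difference of the log2 values was -0.52 ± 0.15 (SE; edgeR adjusted p = 0.6202), and for Nr1d2 it was 0.34 ± 0.10 (SE; edgeR adjusted p = 0.6202). For Mthfd1l this difference was 0.45 ± 0.11 (SE, edgeR adjusted p = 0.5073), with a log2 difference of -0.13 ± 0.08 in females. For Kcnip4 it was 0.31 ± 0.08 (SE, edgeR adjusted p = 0.5365), with -0.07 ± 0.06 in females. No gene was thus shown to respond differently in male controls, and p values above the threshold do not show that the responses were alike.

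**Figure D5:**
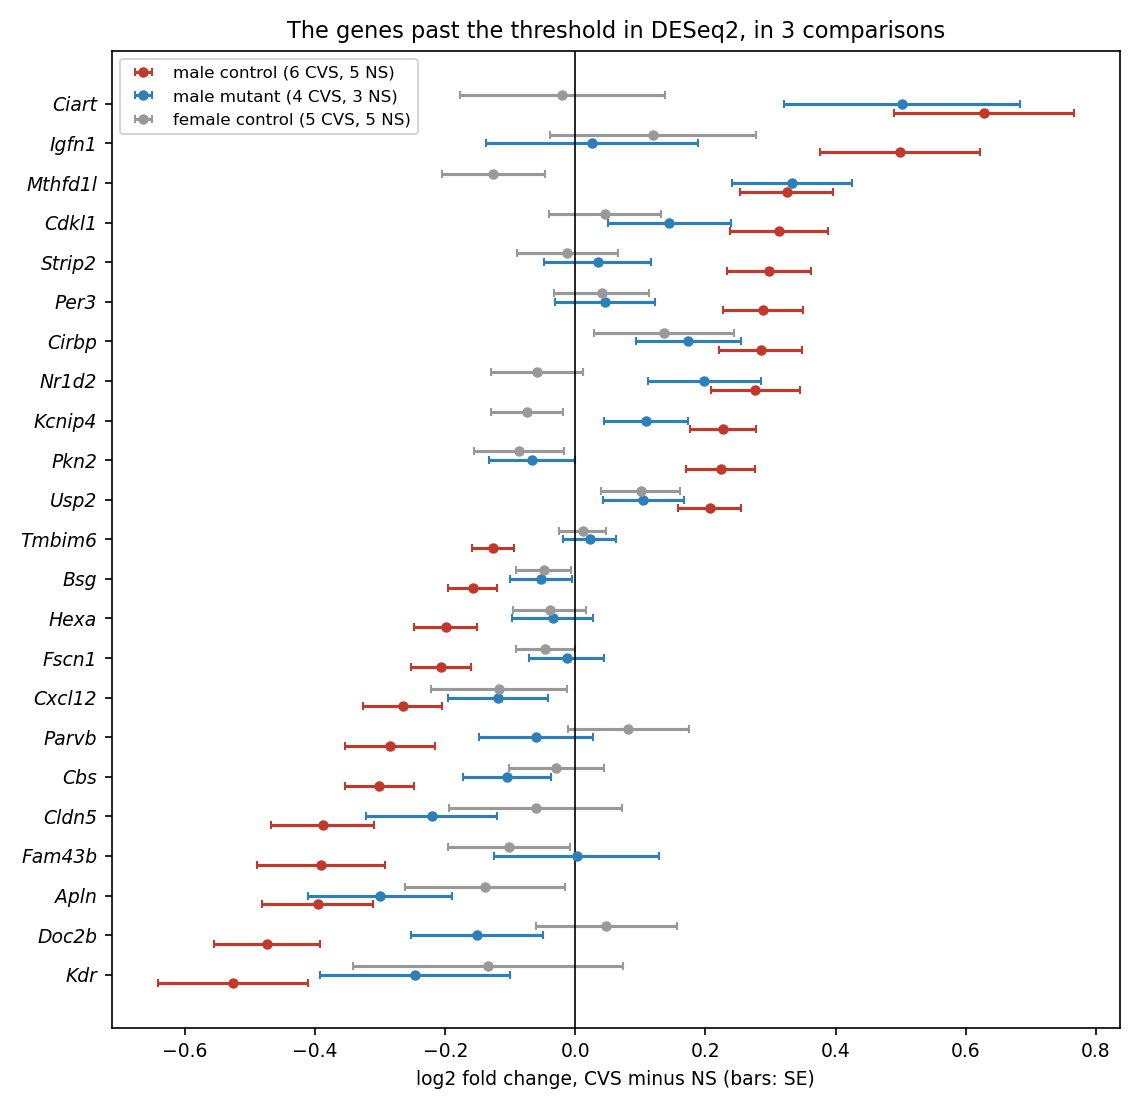
Log2 fold change (CVS minus NS) with its SE for the 23 genes past the DESeq2 threshold in male controls (red), shown also in male mutants (blue) and female controls (grey). The red values were used to choose the genes; 20 of the blue and 14 of the grey points lie on the same side of 0.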

How the data were processed

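Raw gene counts of mouse medial prefrontal cortex RNA, as deposited by the authors for 38 libraries, were used without change. The submitters' processing notes name fastp 0.23.2, STAR 2.7.10b, featureCounts and the build GRCm39. Groups came from the labels, and replicate numbers follow accession order and pair nothing. Symbols came from a table of another build (52029 of 57010 IDs matched) and served only as names.

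In R 4.3.3, edgeR 4.0.16 (TMM, filterByExpr with a minimum count of 10, robust quasi-likelihood fit) was fitted to the 18 male libraries in 4 groups, with Benjamini-Hochberg adjustment over 17212 genes and a threshold of 0.05. CPM used TMM factors. Male and female controls were compared in a fit of all 38 libraries. Alternatives were DESeq2 1.42.0, limma 3.58.1 (voom), a surrogate variable (sva 3.50.0), other normalizations, no filter, other sample sets and leaving out each library. The method was tested on simulated counts with changes larger than those of Doc2b and Cbs. Changes of their size were not simulated. The 25 pairs of replicates had a chi-square per degree of freedom of 4.31 to 13, more than sampling noise alone gives. The p values set the difference between groups against the spread between mice. In the main fit that spread was estimated over all 18 male libraries, mutants included.

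Named genes were those past the threshold, the 12 smallest p values in each direction, genes called by DESeq2 or by the fit of the 11 libraries, up to 6 genes per list and some fixed stress, activity and interneuron genes. Doc2a, Cth, Slc2a1, Pecam1, Cdh5, Per1 and Cry1 were named after their values were seen. Members and lists were chosen with earlier results of these data known.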

Additional observations from a re-analysis of the deposited data

Results flagged for a closer look

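In 182 groups of values (91 named genes, NS and CVS), 13 (7.14%) held a library whose gap to its nearest neighbour was large for the range of its group; chance alone flags about 1 in 20. NS replicate 4 was the lowest NS library for Fscn1 (256.5 CPM, next 305 CPM), Fam43b (33.24 CPM, next 41.2 CPM) and Hspa8 (1359 CPM, next 1621 CPM). NS replicate 1 was lowest for Igfn1 (19.65 CPM, next 26.4 CPM) and highest for Jun (78.23 CPM, next 58.1 CPM). NS replicate 5 was lowest for Cdkl1 (10.96 CPM), and NS replicate 2 was highest for Sytl2 (80.63 CPM). CVS replicate 1 was highest for Cdhr1 (16.55 CPM, next 3.791 CPM) and Cdkn1a (29.23 CPM). CVS replicate 6 was highest for Parvb (23.68 CPM) and Slco1c1 (69.81 CPM) and lowest for Clock (79.78 CPM). CVS replicate 4 was lowest for Hsph1 (265.2 CPM, next 303.8 CPM).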

How the results depend on the processing

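The number of genes called, 2 in edgeR with the 18 male libraries, depended on the setting. It was 15 without a filter on low counts (9 lower, 6 higher), 23 with DESeq2, 4 with the 11 control libraries alone, 3 with 1 surrogate variable, 0 with all 38 libraries and 1 without 3 mutant libraries, a setting chosen after seeing the data. Normalization by RLE or upper quartile and limma voom each gave 2. Leaving out 1 control library gave 0 to 3 calls: 0 without NS replicates 1, 2, 3 or 5 or CVS replicates 2, 3, 4 or 5, and 3 without CVS replicate 6. The tests of differences from mutants and from females gave 0 calls in every setting run. 4 sign changes were seen among 91 named genes: Nr3c2 was -0.00176 without CVS replicate 3, Cdhr1 was -0.0355 without CVS replicate 1, and Sst was 0.00307 without NS replicate 5 and 0.0202 without CVS replicate 3. With 1 library left out at a time, their log2 differences ranged from -0.00176 to 0.0422 for Nr3c2, from -0.0355 to 0.988 for Cdhr1 and from -0.0466 to 0.0202 for Sst. The cause of these changes was not tested. The medians of the 11 lists recomputed kept their sign in all settings run; the activity list ran from -0.45 to -0.26 and the endothelial list from -0.18 to -0.08 with 1 library left out. Without CVS replicate 3 the median was -0.000242 for ribosomal protein and -0.0154 for oxidative phosphorylation genes. The endothelial and interferon medians were -0.0821 and -0.0914 without NS replicate 5, the microglial median was -0.0609 without NS replicate 4, and that of the clock repressors was 0.023 without NS replicate 1. No paired analysis was possible because the labels give no replicate numbers shared between groups.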
